A study of Mus musculus with 2 samples.

Results

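Macrophages that carried many transcripts of the chemokine genes Cxcl9 and Cxcl10 were examined in B16-F10 melanomas of mice with and without an induced loss of Trex1. They were chosen by their raw counts of unique molecular identifiers (UMIs, each standing for 1 captured transcript): at least 5 of Lyz2, at least 1 of Csf1r and at least 10 of Cxcl9 and Cxcl10 together. They had no UMI of Cd3e, Cd79a or Flt3, at most 1 of Cd209a, at most 1 of Xcr1 and Clec9a together, at most 2 of Mki67 and Top2a together, and at most 2 of Arg1. This rule found 1642 cells (here called positive macrophages) among 22490 kept cells of 23731 barcodes, kept cells being those with 300 or more genes detected and no more than 10% of UMIs from mitochondrial genes. They were compared with 4430 cells that met every condition but the Cxcl9 and Cxcl10 cut (macrophages below the cut) and with 839 Arg1-positive macrophages, which held at least 3 Arg1 UMIs and were under the cut. A further 124 cells held both 3 Arg1 UMIs and 10 chemokine UMIs and entered neither class, so the gate without its last 2 conditions held 7035 macrophages.

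All mice were males of 8 to 12 weeks that carried R26CreERT2, a Cre recombinase active after tamoxifen and made in most cell types. Both groups received 1000 B16-F10 cells in Matrigel into the skin of each leg, 1 mg of tamoxifen on 3 days from day 5, and were sampled on day 14. Trex1 fl/fl R26CreERT2 mice (here iKO) had both Trex1 alleles flanked by loxP sites, and Trex1 fl/wt R26CreERT2 mice (here control) had 1 such allele, so the control was heterozygous and also exposed to Cre and tamoxifen. B16-F10 is a transplanted mouse melanoma line, and the series title places the loss of Trex1 in host cells. Live CD45-positive cells were sorted, although the labels name them lymphocytes. Cells of 4 hashtagged samples per genotype were run as 1 pool per genotype, which means that an effect of genotype cannot be told apart from one of the pool. The labels do not say that a hashtagged sample is 1 mouse, and p-values then measure only the spread between these samples. The question of the series is how the immune response set off by losing Trex1 affects tumour growth.

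Cxcl9 and Cxcl10 are chemokines that attract activated T cells and NK cells through the receptor Cxcr3. Cxcl9 transcription is driven mainly by interferon gamma, a product of T cells and NK cells, whereas Cxcl10 also responds directly to type I interferon. Trex1 is an exonuclease that degrades cytosolic DNA, a trigger of the cGAS and STING pathway to type I interferon. Gbp2 and Gbp5 encode interferon-inducible GTPases that act on intracellular microbes, and Rsad2 encodes viperin, an antiviral enzyme.

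The sequences just upstream of both chemokine genes are shown because the results below turn on the balance between them. Each run is the 250 bases before the annotated start of the gene, read 5′ to 3′ on the gene's strand from RefSeq promoters of GRCm38.p6, a build other than that used for counting. Capitals mark every match, on either strand, to an interferon-stimulated response element (ISRE, searched as GAAA, any 2 bases and GAAA again) or to GGGNNTTCC (an NF-kappaB-type site). No match to TTCNNNGAA (a gamma-activated site, GAS) lay in either stretch, and no 2 matches overlapped.
Cxcl9, chr5:92328080-92328329, minus strand: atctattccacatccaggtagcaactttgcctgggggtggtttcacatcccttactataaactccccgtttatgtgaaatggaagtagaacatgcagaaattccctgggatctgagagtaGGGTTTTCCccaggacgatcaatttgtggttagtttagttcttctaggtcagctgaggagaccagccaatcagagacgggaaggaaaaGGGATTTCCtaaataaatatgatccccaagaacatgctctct
Cxcl10, chr5:92348890-92349139, minus strand: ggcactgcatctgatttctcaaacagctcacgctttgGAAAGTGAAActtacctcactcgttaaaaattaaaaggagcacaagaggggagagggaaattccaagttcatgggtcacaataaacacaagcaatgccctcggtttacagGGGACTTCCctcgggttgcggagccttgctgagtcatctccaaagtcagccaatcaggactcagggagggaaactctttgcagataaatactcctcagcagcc
The Cxcl9 stretch held 2 NF-kappaB-type matches, starting at -130 and -42 from the gene start, and 0 ISRE matches. The Cxcl10 stretch held 1 ISRE match at -213 and 1 NF-kappaB-type match at -103. Among 32851 promoters of this length, 2.98% held an ISRE match, 7.02% a GAS match and 4.98% an NF-kappaB-type match. A match describes the letters only. Only these fixed patterns were searched, so runs of another length or spelling, such as gggaaattcc in the Cxcl10 stretch, are unmarked.

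Cxcl9 and Cxcl10 chose the cells, so their levels are a description. The median positive macrophage held 8.5 Cxcl9 and 26 Cxcl10 UMIs, with a median sum of 53 and a highest sum of 779. Many held transcripts of 1 gene alone: 545 cells (33.2%) had no Cxcl9 UMI and 180 (10.96%) had no Cxcl10 UMI. The distribution had no gap at the cut, with 108 cells at 10 to 12 UMIs just inside it and 174 at 7 to 9 just outside. In UMIs per 1000000 UMIs of summed cells (CPM), Gbp2 was 589 just inside and 764 just outside, Gbp5 was 90.8 and 103, and Rsad2 was 409 and 326. The 1534 cells with 13 or more UMIs had 998 CPM of Gbp2, 222 of Gbp5 and 987 of Rsad2. Of the macrophages below the cut, 2401 (54.2%) had 0 UMIs of both chemokines.

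Other cells held both transcripts at a lower level, which is given as the background of these counts. T cells (at least 2 Cd3e and at most 1 Lyz2 UMI, 3431 cells) held 68.1 to 151 CPM of the 2 chemokines in iKO samples and 17.6 to 33.2 CPM in control samples, so this level was also higher in iKO. Of these T cells, 34.8% held at least 1 UMI and 1.69% at least 10, at a median depth of 10512 UMIs. B cells (at least 3 Cd79a and at most 1 Lyz2 UMI, 503 cells) held 33.9 to 75.4 CPM in iKO and 23.8 to 37.7 CPM in control samples at a median depth of 4131 UMIs, 15.5% with at least 1 UMI and 0 with 10 or more, which allows a share of up to 0.596% (counting error only). Free RNA, doublets and expression as sources of these UMIs were not tested. Gated macrophages had a median depth of 14702 UMIs, and 57.8% held at least 1 UMI and 25.1% at least 10.

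Positive macrophages carried transcripts of general macrophage genes, of which the rule itself asked for Csf1r and Lyz2. Of 10 pan-macrophage genes 3 were called higher and 5 lower than in Arg1-positive macrophages (edgeR), where 39.8% of all tested genes were called. Of 11 monocyte genes 7 were higher and 2 lower in the same contrast. Whether these cells were closer to monocytes or to macrophages was not tested. Cd68, a lysosomal glycoprotein, stood at 607 ± 70.6 against 536 ± 25.0 CPM (iKO against control, mean ± SD, n = 4 each), and Adgre1, which encodes F4/80, at 129 ± 10.2 against 98.6 ± 23.3 CPM. Csf1r, the growth factor receptor that is part of the rule, stood at 374 ± 14.0 against 383 ± 11.9 CPM. In each sample their median depth lay between 13734 and 18985 UMIs, against 12800 to 15450 below the cut. Over all kept cells, by contrast, medians were 13048 to 14677 UMIs in iKO and 6557 to 11931 in control samples. Total UMIs per sample ran from 17111065 to 96457227. Of the positive macrophages, 6 had a Scrublet doublet score over 0.25. No barcode was shared within a pool, and 45 were shared between pools.

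**Figure D1:**
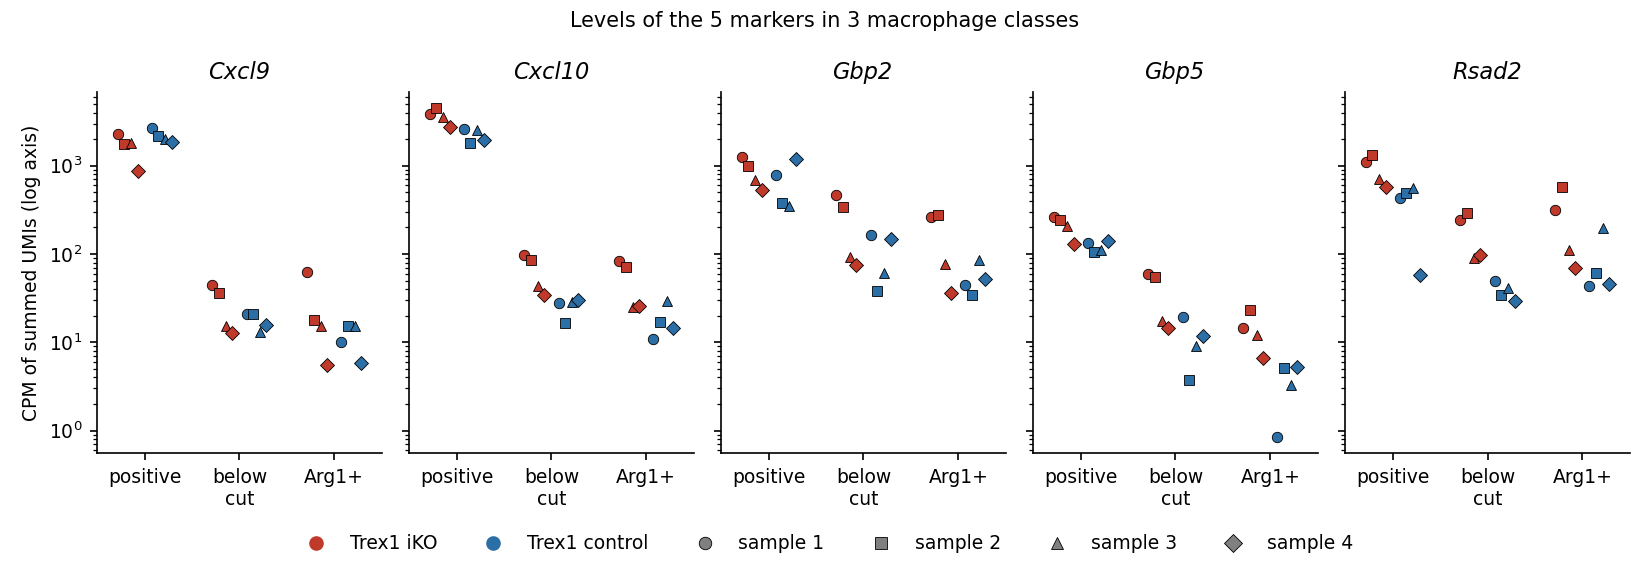
Levels of Cxcl9, Cxcl10, Gbp2, Gbp5 and Rsad2 in 3 macrophage classes, as CPM of UMIs summed per hashtagged sample on a log axis. Each point is 1 sample (red iKO, blue control). Cxcl9 and Cxcl10 were part of the rule, and Rsad2 in positive cells was lowest in control sample 4, at 55.9 CPM on the scale of the positive cells alone.

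The 5 markers differed in how they varied over samples, given here without a test. Cxcl9 stood at 2158, 1683, 1732 and 827 CPM in positive macrophages of iKO samples 1 to 4 and at 2566, 2193, 1972 and 1826 CPM in control samples 1 to 4. Cxcl10 stood at 3720.3, 4250.3, 3414 and 2599.8 CPM in iKO and at 2501, 1794, 2515 and 1882 CPM in control samples. Cxcl10 was thus higher in every iKO sample than in every control sample, while the Cxcl9 ranges overlapped. Gbp2 stood at 1199, 949, 652 and 509.8 CPM in iKO and 752, 380.5, 343 and 1173 CPM in control samples, again overlapping. Gbp5 stood at 253, 234, 196 and 123 CPM in iKO and 128, 104, 108 and 136 CPM in control samples, with iKO sample 4 inside the control range. Rsad2 stood at 1045, 1247, 667 and 554 CPM in iKO and 418, 492, 556 and 55.9 CPM in control samples, where control sample 4 lay far below the rest. CPM values were scaled within each comparison, so a level differs slightly between comparisons.

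Positive macrophages took a larger share of sorted leukocytes in iKO than in control tumours. Their share of kept cells was 16.2%, 9.91%, 5.06% and 5.82% in iKO samples 1 to 4, against 4.95%, 1.28%, 0.760% and 3.19% in the controls. Every iKO sample lay above every control sample, though iKO sample 3 and control sample 1 were close and their exact 95% binomial intervals overlapped. The means were 9.25 ± 5.10% and 2.55 ± 1.91% (SD, n = 4 each), a difference of 6.70 percentage points. The unadjusted two-sided exact permutation p was 0.0286, the smallest that 4 against 4 allows. Adjusted over 3 tests it was 0.0429, but these included the Cxcl9 share, whose genes chose the cells. The adjusted value is therefore not taken as a pass. With every cell thinned to 5000 UMIs the means were 6.14% and 2.25% (exact permutation p = 0.114), where 1096 of 13531 iKO and 2795 of 8959 control cells were too shallow to enter. With a limit of 5% mitochondrial UMIs the difference was 6.71 points (exact permutation p = 0.0571).

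**Figure D2:**
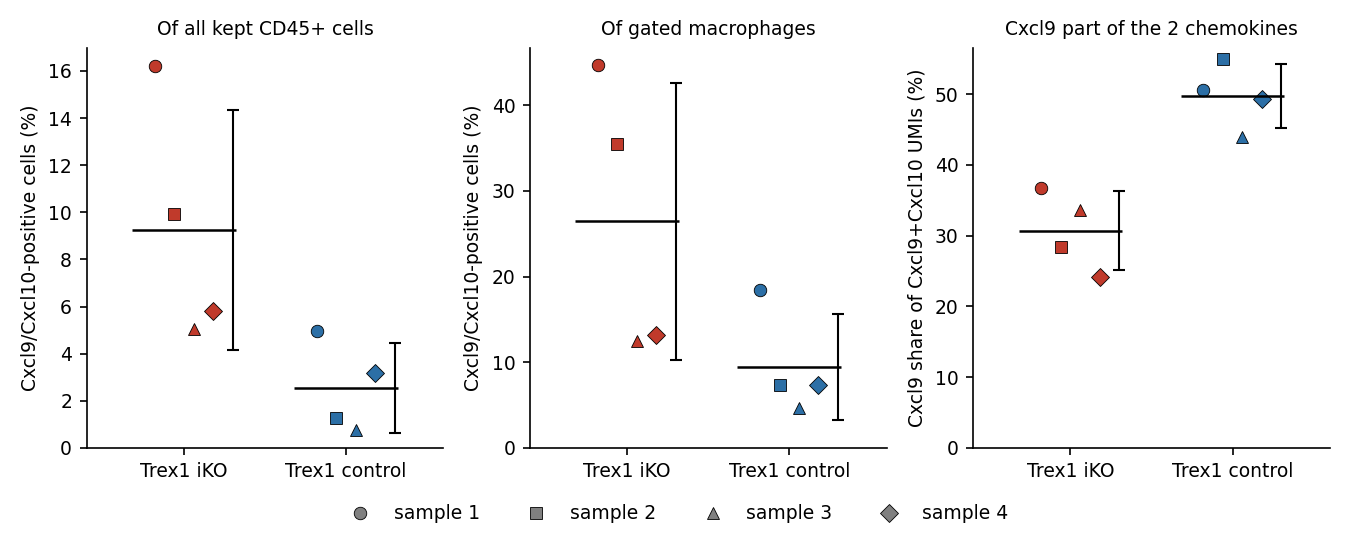
Share of positive macrophages among kept CD45-positive cells (left) and among gated macrophages (middle), and the Cxcl9 part of their Cxcl9 and Cxcl10 UMIs (right), in percent. Points are hashtagged samples, lines are means and bars SD (n = 4). Among kept cells the iKO samples sit between 5.06% and 16.2% and the control samples between 0.760% and 4.95%.

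Within macrophages the shift was less uniform. Of gated macrophages, 44.7%, 35.5%, 12.5% and 13.1% were positive in iKO samples 1 to 4, against 18.5%, 7.31%, 4.66% and 7.38% in the controls. Samples 3 and 4 of iKO lay below control sample 1. The means were 26.4 ± 16.2% and 9.46 ± 6.15% (SD, n = 4 each; two-sided exact permutation p = 0.143), so this difference did not pass the test. The high values came from iKO samples 1 and 2, which also held 1212 of the 1421 positive iKO cells. Cells over the chemokine cut lay on both sides of the Arg1 limit. Their share was 5.43% to 47.6% per sample among cells with at most 2 Arg1 UMIs and 5.48% to 36.05% among cells with 3 or more. Within a sample the share was higher among cells with at most 2 Arg1 UMIs, except in control sample 3 (5.43% against 7.81%).

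The balance of the chemokines is given as a description, since counts of the same 2 genes chose the cells. Cxcl9 made up 36.7%, 28.4%, 33.7% and 24.1% of the Cxcl9 and Cxcl10 UMIs of positive macrophages in iKO samples 1 to 4, against 50.6%, 55.0%, 43.9% and 49.2% in the controls. The groups did not overlap. The means were 30.7 ± 5.58% and 49.7 ± 4.56% (SD, n = 4 each), a difference of -19.0 percentage points. The rule sets a floor on the sum of both and none on either gene. Averaged over cells instead of UMIs the difference was -18.97 points. Counted by cell, 38.1%, 34.4%, 31.8% and 25.9% of positive macrophages in iKO samples held more Cxcl9 than Cxcl10 UMIs, against 52.0%, 68.2%, 38.1% and 51.3% in control samples.

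Trex1 itself was not detected in these cells. It had 0 UMIs in positive macrophages of all 8 samples, which allows up to 0.125 CPM over the iKO samples and 0.76 CPM over the controls (3 counts, counting error only). Macrophages below the cut held 0 as well, among 21978195 UMIs in the controls, and Arg1-positive control cells held 2. The limits hold for counted UMIs alone, and whether Trex1 reads were assigned to the gene was not tested. The genotype labels could therefore not be checked from Trex1 in these cells. Its neighbour Atrip stood at 11.4 CPM over all iKO and 6.84 CPM over all control positive cells and did not pass the test between genotypes (edgeR adjusted p = 0.236).

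In iKO tumours positive macrophages had more transcripts of type I interferon-stimulated genes and of Ly6c2, and fewer of MHC class II, complement C1q and Apoe. Counts were summed per sample and tested with edgeR's quasi-likelihood test and Benjamini-Hochberg adjustment over 7949 genes. Of these, 393 were higher in iKO (4.94%) and 344 lower (4.33%), 737 in all (9.27%), with a median log2 fold change of -0.02 over all tested genes. Among genes whose groups did not overlap there were 1227 (15.4%). The count was 295 without iKO sample 1, 260 without iKO sample 2, 460 without control sample 2 and 392 without control sample 4. Without control samples 2 and 3, which held 22 and 21 positive cells, it was 399.

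Of 31 tested type I interferon-stimulated genes, 30 rose in iKO and 0 fell, with a median log2 fold change of 1.53. The count stayed between 26 and 31 under the 17 alternative settings that did not split the positive cells by chemokine. Irf7, a transcription factor that amplifies type I interferon, stood at 1254, 1342, 761 and 862 CPM in iKO samples 1 to 4 and at 279, 229, 309 and 127 CPM in control samples 1 to 4 (log2 fold change 2.19 ± 0.26 SE, adjusted p = 0.00103). All iKO samples lay above all controls. Isg15, a ubiquitin-like antiviral protein, stood at 3452, 3959, 2099 and 2009.6 CPM in iKO and 1149, 964, 1128 and 757 CPM in control samples (log2 fold change 1.53 ± 0.22 SE, adjusted p = 0.00257), again without overlap. Oas3, which makes the 2-5A messenger that activates RNase L, stood at 196, 213, 123 and 132 CPM in iKO and 33.1, 28.4, 43.3 and 29.7 CPM in control samples (log2 fold change 2.38 ± 0.22 SE, adjusted p = 0.000288). Ifi44 showed the same order, at 162, 192, 80.7 and 99.5 CPM in iKO and 30.7, 23.6, 37.1 and 2.83 CPM in control samples (log2 fold change 2.73 ± 0.45 SE, adjusted p = 0.00434). Here too control sample 4 was the lowest.

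Other genes of the response were among the largest rises. Slfn4, a Schlafen family gene of myeloid cells, rose by 2.73 ± 0.28 on the log2 scale, Oasl1, a regulator of Irf7 translation, by 2.16 ± 0.33, and Ifi208, of the family of interferon-inducible DNA-binding proteins, by 2.14 ± 0.31. Cmpk2, a mitochondrial nucleotide kinase next to Rsad2, rose by 1.95 ± 0.41, Usp18, the protease that removes Isg15 from proteins, by 1.92 ± 0.27, and Ifit1bl1 by 1.86 ± 0.22 (± SE; edgeR adjusted p from 0.000377 for Slfn4 to 0.0132 for Cmpk2). Ifit3, which binds foreign RNA together with Ifit1, stood at 636, 868, 474 and 501 CPM in iKO and 228, 324, 253 and 38.9 CPM in control samples (edgeR adjusted p = 0.0357), with no overlap but a wide control range. Ifit1 was the tested gene of the list that did not pass (log2 fold change 1.01 ± 0.40 SE, edgeR adjusted p = 0.14).

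GTPases better known from interferon gamma moved less evenly. Of 12 tested, 5 rose and 0 fell, with a median log2 fold change of 0.875 and all 12 above 0. Those that rose were Gbp7 (0.68), Irgm1 (1.04), Irgm2 (0.88), Igtp (0.87) and Tgtp2 (1.46, all log2 fold changes). Iigp1, which attacks the vacuoles of intracellular parasites, had a log2 fold change of 1.03 that did not pass (edgeR adjusted p = 0.09). The count was 1 without iKO sample 1, 1 without iKO sample 2, 2 without control sample 2, 3 without control sample 3, 1 without control sample 4, 8 without iKO sample 4 and 10 without the filter on low counts. Near-identical members of this family may share reads, so their single values are uncertain.

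Signalling components changed little. Of 14 tested interferon receptors, kinases and factors, 2 rose and 0 fell, a count of 0 without iKO sample 1 or 2 and of 1 without control sample 1, 2 or 4. Among them Irf9, an interferon regulatory factor that binds DNA, rose by 0.71 ± 0.16 (SE) on the log2 scale, 77.7 against 47.7 CPM. The receptor subunits Ifnar1 (-0.08), Ifnar2 (-0.26), Ifngr1 (-0.41) and Ifngr2 (0.01) did not pass the test.

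Among cytosolic DNA sensing genes, 5 of 10 rose and 0 fell, with a median log2 fold change of 0.63. Cgas, the sensor that makes cGAMP, stood at 50.9 ± 6.27 against 26.7 ± 5.55 CPM (log2 fold change 0.92 ± 0.17 SE, adjusted p = 0.00683). Sting1, the receptor for cGAMP, stood at 101 ± 24.3 against 90.4 ± 17.1 CPM and did not pass (edgeR adjusted p = 0.779). The other 4 that rose were the AIM2-like receptor genes Ifi204 (0.90), Ifi205 (1.25), Ifi211 (0.82) and Mndal (0.91, log2 fold changes), a cluster of related genes that may share reads.

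**Figure D3:**
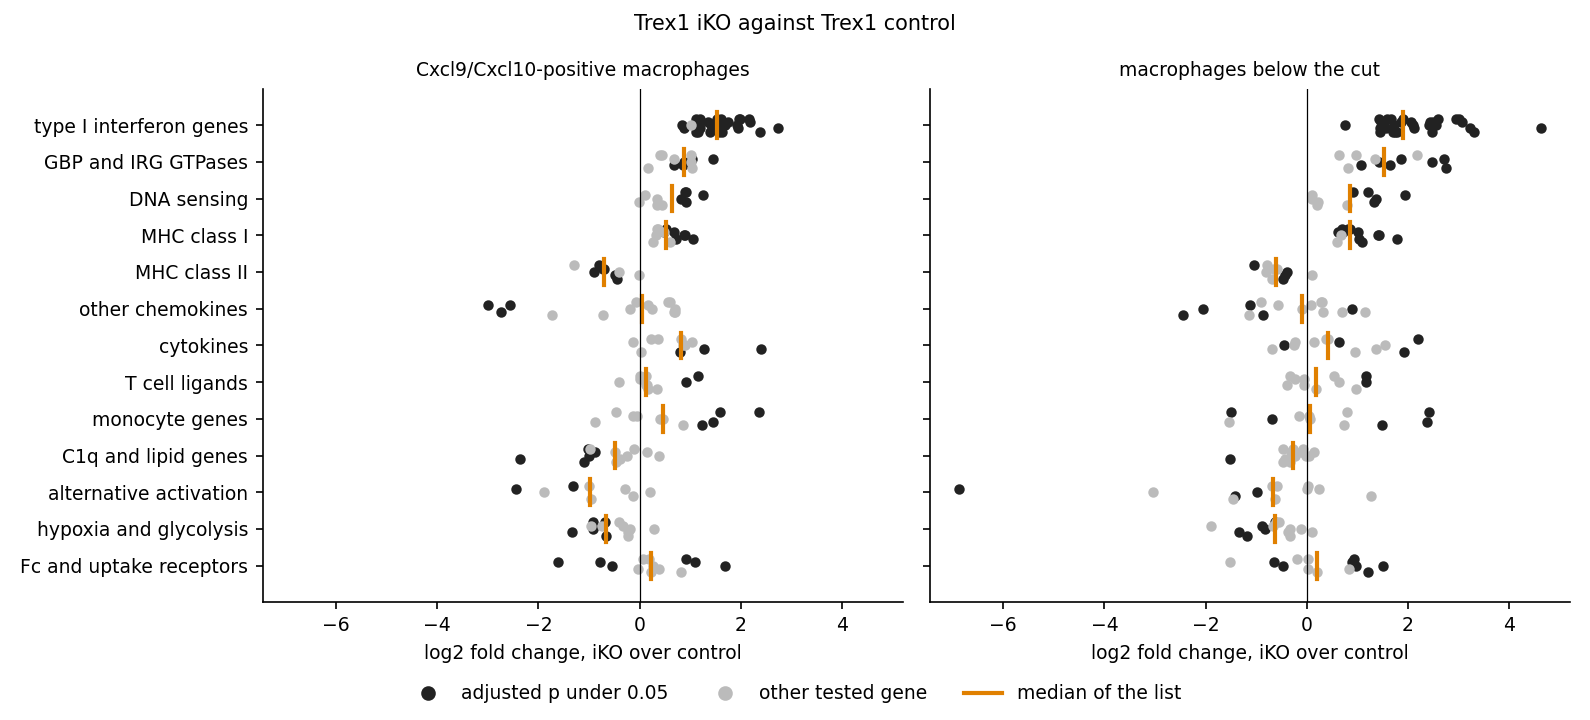
Log2 fold changes, iKO over control, of the genes of 13 lists in positive macrophages (left) and in macrophages below the cut (right). Dark points passed an edgeR adjusted p under 0.05 and orange bars are list medians. The type I interferon genes lie to the right in both classes, with medians of 1.53 and 1.91, and the MHC class II genes to the left, with medians of -0.71 and -0.615.

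Antigen presentation split by class. Of 13 MHC class I presentation genes 7 rose and 0 fell, with a median log2 fold change of 0.52. B2m, the light chain, stood at 4253 ± 732 against 3359.9 ± 319.9 CPM (log2 fold change 0.34 ± 0.13 SE, adjusted p = 0.111), and Tap1, the peptide transporter, at 349.7 ± 55.5 against 216 ± 27.9 CPM (log2 fold change 0.68 ± 0.14 SE, adjusted p = 0.0132). Of 9 MHC class II genes 6 fell and 0 rose, with a median of -0.71. H2-Aa, the class II alpha chain, stood at 2659.6, 2615, 3389 and 3492 CPM in iKO samples and 4587, 7468, 4274 and 4877 CPM in control samples (log2 fold change -0.80 ± 0.17 SE, adjusted p = 0.0132). Every iKO sample lay below every control. Cd74, the invariant chain, stood at 8586 ± 854 against 14012 ± 3537 CPM (log2 fold change -0.71 ± 0.15 SE, adjusted p = 0.0129). Ciita, the transcriptional master regulator of class II, had a log2 fold change of -0.42 that did not pass (edgeR adjusted p = 0.175). The class II count was 3 without iKO sample 1 and 2 without iKO sample 2, and the class I count was 2 without iKO sample 1, iKO sample 2 or control sample 4. Over all alternative settings the class I count ranged from 1 to 10.

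Part of the monocyte list was higher in iKO and part of the C1q and lipid list lower. Of 11 monocyte genes 4 rose and 0 fell, with 7 of 11 above 0 and a median log2 fold change of 0.47. Ly6c2, the surface protein of inflammatory monocytes, stood at 2938, 2887, 1533 and 1782 CPM in iKO samples and 603, 260.0, 547 and 373 CPM in control samples (log2 fold change 2.35 ± 0.27 SE, adjusted p = 0.000923), the lowest iKO value being above the highest control. Ly6a, itself interferon-inducible, rose by 1.45 ± 0.26 and Ms4a4c by 1.24 ± 0.16 (log2, SE). Ccr2, the receptor that brings monocytes out of the marrow, stood at 884 ± 87.8 against 912 ± 139.6 CPM and did not pass (edgeR adjusted p = 0.898), nor did Plac8 at 3964 ± 587 against 2185 ± 1042 CPM (edgeR adjusted p = 0.116). Of the 4 that rose, Ly6a is also known as an interferon-stimulated gene. Whether the other rises belonged to the interferon response was not tested, and the lists were not tested against each other.

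Of 13 complement C1q and lipid-associated macrophage genes, 5 fell and 0 rose, with a median of -0.48. C1qa, which starts the classical complement pathway, stood at 742, 737, 844 and 647 CPM in iKO samples and 2033, 1725, 1344 and 892 CPM in control samples (log2 fold change -1.02 ± 0.20 SE, adjusted p = 0.0108), without overlap. C1qb and C1qc had log2 fold changes of -0.87 ± 0.19 and -1.01 ± 0.19 (SE). Apoe, the lipid carrier, stood at 339, 433, 1003 and 1109 CPM in iKO and 3983, 4847, 3792 and 2108 CPM in control samples (log2 fold change -2.36 ± 0.36 SE, adjusted p = 0.00289), with every iKO sample below every control and iKO samples 1 and 2 lowest. Trem2, the lipid receptor of these macrophages, had a log2 fold change of -1.10 ± 0.23 SE. Spp1, which encodes osteopontin, stood at 509 ± 277 against 460.3 ± 182 CPM and did not pass (edgeR adjusted p = 0.882). The count ranged from 2 to 6 over the alternative settings, the 2 coming without control samples 2 and 3.

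Other large falls were of single genes. Cd63, a tetraspanin of late endosomes, had a log2 fold change of -1.84 ± 0.33 SE, Trf, the iron carrier transferrin, of -1.61 ± 0.30, and Mt1, a metallothionein that binds zinc, of -1.50 ± 0.31. Selenop, a selenium carrier of tissue macrophages, had -1.08 ± 0.20, and the paired membrane proteins Tmem176a and Tmem176b had -1.20 ± 0.17 and -1.14 ± 0.18. Echs1, a mitochondrial enzyme of fatty acid oxidation, had -1.15 ± 0.14, and the imprinted noncoding RNA Kcnq1ot1 had -1.29 ± 0.30. All 8 passed edgeR's test without overlap between groups.

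Beside Cxcl9 and Cxcl10 the chemokines of positive macrophages mostly did not pass. Of 14 tested, 0 rose and 3 fell, the falls numbering 0 without iKO sample 1 and 1 without iKO sample 2 or control sample 2. Over all alternative settings 0 to 5 rose and 0 to 5 fell. Ccl8, a monocyte attractant, stood at 131, 106, 73.2 and 13.3 CPM in iKO and 323, 1035, 615 and 74.3 CPM in control samples (log2 fold change -2.56 ± 0.68 SE, edgeR adjusted p = 0.0346), where control sample 4 lay within the iKO range. Pf4 (platelet factor 4) and Cxcl3, a neutrophil attractant, had log2 fold changes of -2.74 ± 0.70 and -2.995 ± 0.69 SE. Ccl2, the main ligand of Ccr2, stood at 2659 ± 573 against 1739.7 ± 643 CPM (edgeR adjusted p = 0.104), and Ccl5, which draws T cells, at 348 ± 257 against 218 ± 120.3 CPM (edgeR adjusted p = 0.407). Neither passed.

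Of 11 tested cytokine genes 3 rose and 0 fell. Il15, a survival factor of NK cells and memory CD8 T cells, stood at 46.0, 49.7, 34.9 and 38.1 CPM in iKO and 25.5, 9.45, 12.4 and 14.2 CPM in control samples (log2 fold change 1.27 ± 0.24 SE, adjusted p = 0.00761). Tnfsf10, which encodes TRAIL, stood at 22.9 ± 8.92 against 5.81 ± 2.68 CPM (log2 fold change 2.40 ± 0.40 SE, adjusted p = 0.00434), and Il18, an inflammasome cytokine, at 94.4 ± 8.56 against 56.4 ± 26.3 CPM (log2 fold change 0.79 ± 0.20 SE, adjusted p = 0.0297). Tnf stood at 91.9 ± 8.58 against 85.5 ± 45.0 CPM and Il1b at 2456 ± 222 against 2676 ± 910.3 CPM, and neither passed. Of 11 genes that act on T cells, 2 rose and 0 fell: Cd40, the receptor for T cell help (0.91 ± 0.20), and Lgals9, which encodes galectin-9 (1.16 ± 0.18, log2, SE), a count of 1 without iKO sample 2 or control sample 4. Cd274, which encodes PD-L1, stood at 186 ± 39.3 against 173 ± 42.5 CPM and did not pass (edgeR adjusted p = 0.764).

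Uptake receptors moved in both directions, 3 up and 3 down of 13. Fcgr1, the high-affinity IgG receptor (0.92), and the endosomal nucleic acid receptors Tlr7 (1.09) and Tlr9 (1.69) rose. The inhibitory receptor Fcgr2b (-0.78), Fcgr3 (-0.55) and Mertk, which clears dying cells (-1.60, log2 fold changes), fell. Of 13 hypoxia and glycolysis genes 5 fell and 0 rose, with a median log2 fold change of -0.67. The count was 3 without iKO sample 1 or control sample 3, 1 without iKO sample 2 or control sample 2 and 0 without control sample 4. They were Pdk1 (-0.69), Ero1a (-0.93), Egln3 (-1.33), Hilpda (-0.67) and Ndrg1 (-0.91). Of 8 alternative activation genes 2 fell, Mgl2 (-2.44) and Vegfa (-1.32), a count of 0 without control sample 4 and of 1 when control sample 2 or 3, or iKO sample 1 or 2, was left out. Of 15 immediate-early and heat-shock genes that tissue digestion can induce, 0 passed, 7949 genes having been tested with edgeR. Under the alternative settings 0 rose and up to 3 fell. In macrophages below the cut 5 of the 15 were lower in iKO and 0 higher, with a median log2 fold change of -0.45. There 4.67% of all tested genes were lower. Whether digestion differed between the pools was not tested. Of 7 cell-cycle genes 2 fell, Stmn1 (-1.07) and Tubb5 (-0.65), a count of 0 without iKO sample 1 or 2 and of 1 without control sample 1. Of 10 pan-macrophage genes Fcgr1 rose and Cd14, the co-receptor for lipopolysaccharide, fell (-0.55), a fall that did not pass when control sample 1 or 2, or any 1 iKO sample, was left out.

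T cell transcripts moved with genotype in the same profiles. The 10 T cell markers summed to 104 to 140 CPM in positive macrophages of iKO and 46.9 to 69.7 CPM in control samples, with none of the 10 at 0 over the class, and 3 of 7 tested rose (0 after thinning to 5000 UMIs). Gzmb, a cytotoxic granule protease, stood at 39.1, 26.7, 24.1 and 23.7 CPM in iKO and 4.64, 9.45, 0 and 4.25 CPM in control samples (log2 fold change 2.66 ± 0.36 SE, adjusted p = 0.0021). The 6 NK cell markers summed to 8.21 to 34.5 CPM in iKO and 2.24 to 6.25 CPM in control samples, and none was expressed highly enough to be tested. Neutrophil markers (7 genes) summed to 176 to 1518 CPM in iKO and 271 to 713 CPM in control samples and dendritic cell markers (9 genes) to 68.0 to 140 CPM and 130 to 155 CPM. B cell markers lay at 52.2 to 68.9 and 47.0 to 131 CPM, melanoma markers at 29.1 to 41.8 and 33.5 to 42.5 CPM with Gpr143 at 0, and stromal markers at 19.7 to 34.5 and 10.2 to 37.5 CPM. The part of these transcripts in the genotype results was not tested.

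Of the 66 genes named above that passed between genotypes, 26 lost the call in at least 1 of the 8 fits without a sample, among them Irf9, Ifit3, Ccl8, Il18, Mertk, Vegfa and 4 of the 5 GTPases. Irf7, Isg15, Oas3, Ifi44, Ly6c2, Cgas, H2-Aa, Cd74, C1qa and Apoe were not among them.

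Macrophages below the cut of the same tumours gave the values beside which those of positive macrophages can be read. Of 10661 genes, 619 were higher in iKO (5.81%) and 498 lower (4.67%), 1117 in all (10.5%), and the groups did not overlap for 1922 (18.0%). The count was 582 without iKO sample 1, 487 without iKO sample 2, and 670, 693 and 686 without control samples 2, 3 and 4. All 31 type I interferon-stimulated genes tested rose, with a median log2 fold change of 1.91, 11 of 13 class I genes rose (0.85), and 4 of 10 class II genes fell (-0.615). Of 13 C1q and lipid genes 1 fell. Isg15 stood at 1817, 2028, 744 and 685 CPM in iKO and 264, 185, 225 and 197 CPM in control samples, and Irf7 at 992, 1072, 511 and 531 CPM and 123, 72.0, 114 and 59.3 CPM. In each of the 8 samples both genes stood lower below the cut than in the positive cells.

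The difference between the genotype effects of both classes was tested directly, as an interaction with each sample as a block. Of 9898 genes, 22 differed (0.222%), 12 with a higher effect in positive macrophages (0.121%) and 10 with a lower one (0.101%). At an unadjusted p under 0.05 there were 827, DESeq2 called 48, and the count was 6 without iKO sample 2, 1, 14 and 9 without control samples 1, 2 and 3, and 49 without control sample 4. Irf7 rose by 2.19 on the log2 scale in positive macrophages and by 3.07 below the cut (difference -0.81 ± 0.13 SE, edgeR adjusted p = 0.0154). Isg15 rose by 1.53 and 2.60 (difference -0.93 ± 0.14 SE, edgeR adjusted p = 0.0147). Ifi44 rose by 2.73 and 4.62 (difference -1.82 ± 0.34 SE, edgeR adjusted p = 0.0425). Phf11d (difference -0.81) completed the 4 of 31 type I genes that differed, all with a smaller rise in positive cells. The cut that made both classes counts Cxcl10, which itself responds to type I interferon. How far the cut shaped these differences was not tested. In the other direction, Cxcl2, a neutrophil attractant, had a log2 fold change of -0.08 in positive macrophages and -1.11 below the cut (edgeR adjusted p of the difference = 0.0319). The monocyte genes Vcan (0.40 and -0.68) and Fn1 (-0.46 and -1.50) differed likewise (edgeR adjusted p of the difference = 0.0226 and 0.0486). The neutrophil marker Cxcr2 was among the 22 (difference 3.10), and the 7 neutrophil markers summed to 1327 to 6108 CPM below the cut in iKO and 3243 to 13614 CPM in control samples, against the 176 to 1518 and 271 to 713 CPM of positive macrophages. Their part in these differences was not tested. Each of the 8 genes named here for a difference lost the call in at least 1 fit without a sample.

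Within a tumour, positive macrophages were set against the macrophages below the cut. The cut itself made this contrast, so the counts describe which other genes went along with Cxcl9 and Cxcl10 and no p is given. With each sample as a block, 2319 of 9898 genes were called by edgeR (23.4%), 1352 higher (13.7%) and 967 lower (9.77%), and without the filter on low counts 1143 were higher and 1275 lower. Most lists of interferon-inducible genes were higher nearly throughout: 30 of 31 type I genes (median log2 difference 0.98), 13 of 13 GTPases (1.81), 8 of 10 DNA sensing genes (0.86), 13 of 13 class I genes (0.75) and 10 of 10 class II genes (0.74), where the median over all genes was 0.01. Of 14 interferon receptors, kinases and factors 5 were higher and 1 lower (0.10).

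**Figure D4:**
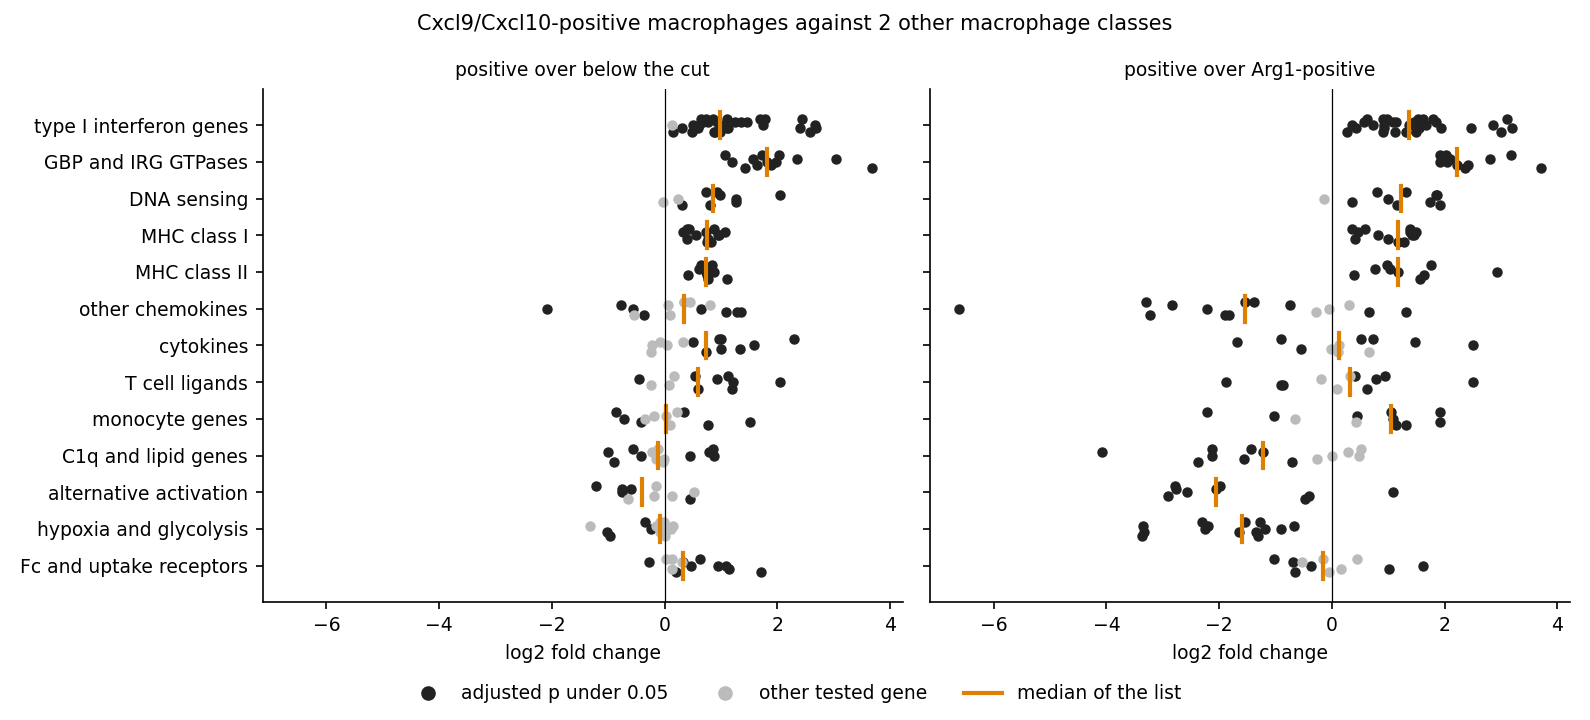
Log2 fold changes of the genes of 13 lists between positive macrophages and macrophages below the cut (left) or Arg1-positive macrophages (right), with each sample as a block. Dark points had an edgeR adjusted p under 0.05 and orange bars are list medians. The GTPases lie farthest right on the left, with a median of 1.81, and the hypoxia genes lie left of 0 on the right, with a median of -1.59.

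Iigp1, Serpina3g and Socs1 had the largest log2 differences among the named genes. Iigp1 had a lowest, median and highest sample value of 50.1, 332 and 595 CPM in positive macrophages and of 6.43, 13.3 and 96.0 CPM below the cut, and was higher in 8 of 8 samples (log2 difference 3.68). Serpina3g, a serine protease inhibitor of activated leukocytes, had 138, 218 and 279.6 CPM and 7.40, 14.3 and 45.9 CPM (log2 difference 3.49). Socs1, the feedback inhibitor of interferon signalling, had 118, 179 and 243 CPM and 6.12, 18.9 and 51.7 CPM (log2 difference 2.89). Both of the last pair were higher in 8 of 8 samples. Ifit1, Ifit2, Ifit3 and Ifit3b differed by 2.67, 2.69, 2.58 and 2.43, Cmpk2 by 2.41, Gbp4 by 2.35, and Calhm6, a channel protein of activated macrophages, by 2.22 on the log2 scale.

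Positive cells also carried more of the machinery that meets T cells. Cd40 had 59.5, 102 and 182 CPM as lowest, median and highest sample and 9.19, 22.6 and 53.1 CPM below the cut (log2 difference 2.04). Cd274 had 122, 184 and 234 CPM and 40.1, 76.4 and 149 CPM (log2 difference 1.12). Of 11 such genes 7 were called higher and 1 lower. Of 13 cytokine genes 8 were called higher, among them Il18bp, the decoy for interleukin-18 (1.58), Il27, which tunes T cell responses (1.33), and Tnf (0.97). Chemokines split evenly, with Ccl5 (1.35), Ccl12 (1.29), Cxcl16, the ligand of Cxcr6 (1.08), and Ccl4 (0.64) higher and Cxcl3 (-2.08), Cxcl2 (-0.78), Ccl6 (-0.37) and Ccl9 (-0.56) lower. Among factors, Irf1 (1.77) and Irf8 (1.305), both induced by interferon gamma, were higher, while the receptor chain Ifngr1 was lower (-0.79, log2 differences).

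C1q genes were on the side of the positive cells in this contrast, with C1qa at a log2 difference of 0.86, whereas Spp1 (-1.004) and Cd9 (-0.89) were lower. Of the named genes, the neutrophil genes S100a8 and S100a9 were lower by the largest amounts, S100a9 having 55.9, 338 and 724 CPM in positive cells and 663, 1687 and 6849 CPM below the cut. Also lower, beside Cxcl3, were Ear2, a ribonuclease (-1.31), Ace, the angiotensin-converting enzyme (-1.20), Cx3cr1, the fractalkine receptor (-1.08), Thbs1, thrombospondin (-1.23), and Klf2, a quiescence factor (-1.08, log2 differences). Stk10 (-1.14) and Add3 (-1.08) completed the named falls. Of 15 immediate-early and heat-shock genes 4 were lower and 0 higher.

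Against Arg1-positive macrophages the contrast was wider, and again the rule had made it. Of 7498 genes 2987 were called by edgeR (39.8%), 1496 higher (20.0%) and 1491 lower (19.9%), a count of 1554 once cells were thinned to 5000 UMIs. All 31 type I genes (median log2 difference 1.36), 11 of 11 GTPases (2.22), 13 of 13 class I genes (1.18) and 9 of 9 class II genes (1.18) were higher. All 14 hypoxia and glycolysis genes were lower (-1.59), with 8 of 9 alternative activation genes (-2.05), 8 of 13 C1q and lipid genes (-1.23) and 10 of 15 chemokines (-1.54). Ciita had 67.9, 107 and 145 CPM as lowest, median and highest sample in positive and 3.63, 14.2 and 20.4 CPM in Arg1-positive macrophages (log2 difference 2.93). Calhm6 had 68.2, 248 and 394 CPM and 3.39, 6.29 and 27.8 CPM (4.64). Spp1 had 198, 399.8 and 783 CPM and 4858, 6480.4 and 16954 CPM, lower in 8 of 8 samples (-4.07). Cxcl3 had 2.50, 7.38 and 109.6 CPM and 652, 1118 and 2163 CPM (-6.61), and Ccl2 had 1178, 2095 and 3107 CPM and 3068, 5050.0 and 9613 CPM (-1.39). Beside Cxcl9 and Cxcl10, which the rule had set apart, the classes thus differed in chemokine levels. Cxcl2, Cxcl3, Ccl2, Ccl6, Ccl7 and Ccl9 were higher in Arg1-positive cells, and 2 of the 15 chemokines were higher in positive cells. Positive cells also held Cxcl2, at a median of 823 against 5928 CPM. Of the hypoxia targets, Hilpda, a lipid droplet protein, differed by -3.37, Egln3, an oxygen sensor, by -3.33 and Vegfa, the vascular growth factor, by -2.77. Pdpn, podoplanin (-4.68), Mt2, a metallothionein (-4.21), Il7r (-3.29), Pf4 (-3.23), Ctsl, a lysosomal protease (-2.95), and Emp1 (-2.90) were the other named genes that were lower in positive cells. Serpina3g (4.26), Iigp1 (3.71), Ifit2 (3.20), Gbp3 (3.18) and Socs1 (2.81) were among those that were higher (log2 differences).

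Positive macrophages differed among themselves. Split by their main chemokine, 613 (37.3%) held more Cxcl9 than Cxcl10 UMIs (Cxcl9-major), 1024 more Cxcl10 (Cxcl10-major) and 5 as many of each. The split used these 2 genes alone. It made the contrast itself, so the counts describe which other genes went along with either chemokine, and no p is given. All other genes were compared by edgeR within a sample, in 6 samples with at least 20 cells of each kind. These were the 4 of iKO and control samples 1 and 4. Cxcl10-major cells had more of the type I interferon response, more monocyte genes and more cytokines, and Cxcl9-major cells had more MHC class II, Ccl5 and Cxcl16. Of 6598 genes 303 were higher in Cxcl9-major cells (4.59%) and 571 in Cxcl10-major cells (8.65%), 874 in all (13.2%), with a median log2 difference of 0.01 over all genes. The count was 509 after thinning to 5000 UMIs, 490 without iKO sample 1 and 447 without iKO sample 2.

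Of 31 type I genes 28 were higher in Cxcl10-major cells and 0 in Cxcl9-major cells, with a median log2 difference (Cxcl9-major over Cxcl10-major) of -0.83. Rsad2, which took no part in this split, stood in Cxcl9-major against Cxcl10-major cells at 395 against 1492 CPM in iKO sample 1, 378 against 1791 in sample 2, 176 against 954 in sample 3 and 89.6 against 729 in sample 4. In control samples 1 and 4 it stood at 61.7 against 856 and 5.26 against 118 CPM (log2 fold change -2.64 ± 0.21 SE). It was lower in Cxcl9-major cells of every sample. Ifit1 (-2.29), Ifit2 (-2.19), Ifit3 (-2.29), Ifit3b (-2.33), Ifit1bl1 (-1.90), Cmpk2 (-2.26) and Ifi208 (-1.75) went the same way, as did Cd69, an early activation receptor (-1.59). Interferon signalling genes higher in Cxcl10-major cells were 4 of 14, among them Socs1 (-1.19) and Irf1 (-1.01). Il15 (-1.56), Il18 (-0.71), Il1b (-0.59) and Tnfsf10 (-1.30) were among 6 of 10 cytokines that were higher there, and Il18bp (0.61) was the one on the other side. Of 11 monocyte genes 7 were higher in Cxcl10-major cells, among them Hp, haptoglobin (-1.59), and Vcan, versican (-1.08). The neutrophil gene S100a8 (-2.48, log2 differences) went with them and was among the 2 of 3 tested neutrophil markers that were higher there.

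**Figure D5:**
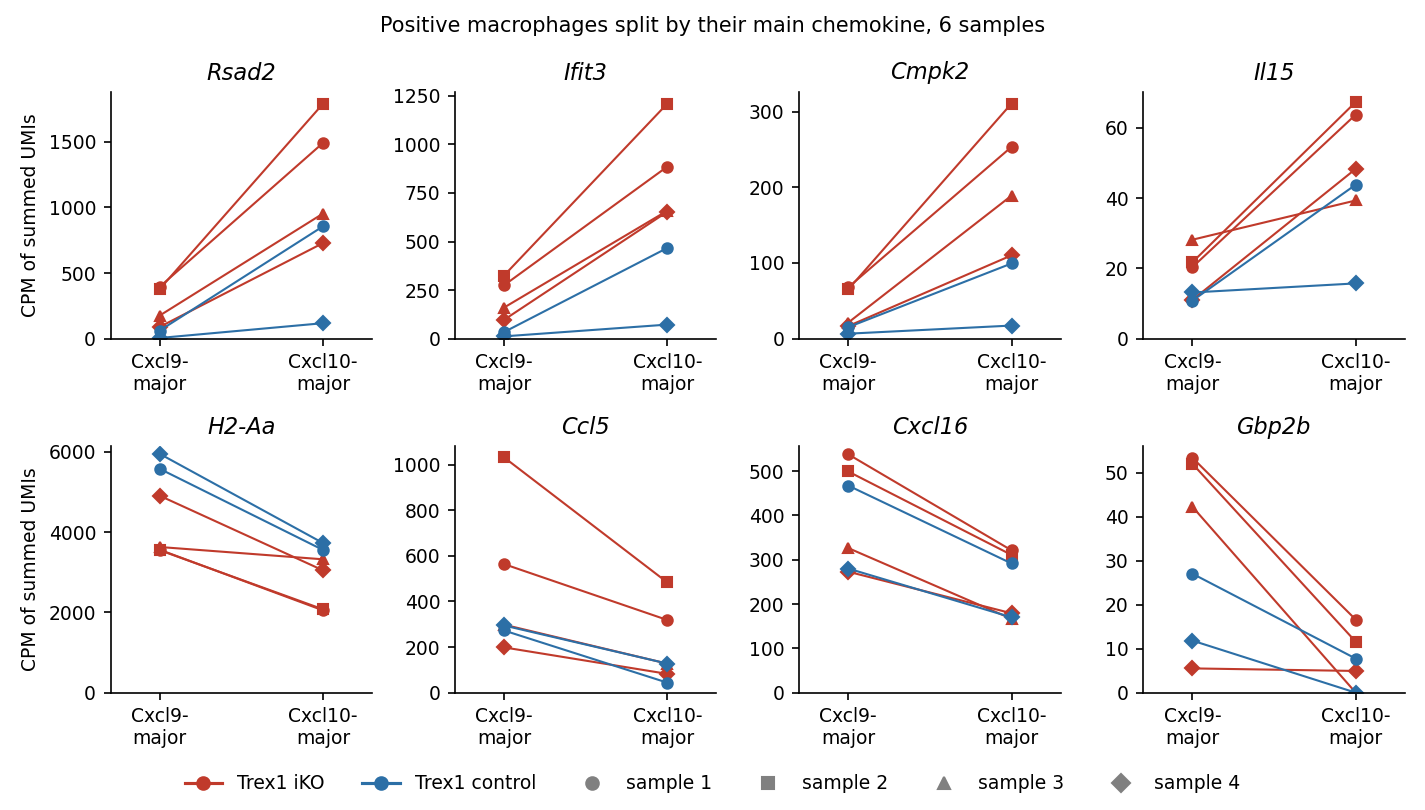
Levels of 8 genes in Cxcl9-major and Cxcl10-major positive macrophages of 6 samples, as CPM of summed UMIs. Each line joins the 2 kinds of cell of 1 sample (red iKO, blue control). Rsad2, Ifit3, Cmpk2 and Il15 rise from Cxcl9-major to Cxcl10-major cells in each sample drawn, and H2-Aa and Ccl5 fall.

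On the Cxcl9 side stood class II genes and 2 further chemokines. Of 9 class II genes 8 were higher in Cxcl9-major cells and 0 lower, with a median of 0.62. H2-Aa stood in Cxcl9-major against Cxcl10-major cells at 3558 against 2049 CPM in iKO sample 1, 3547 against 2075 in sample 2, 3627 against 3320.3 in sample 3 and 4903 against 3044 in sample 4. In control samples 1 and 4 it stood at 5574 against 3553 and 5946 against 3725 CPM (log2 fold change 0.62 ± 0.07 SE). The gap was smallest in iKO sample 3. Ccl5 was higher in Cxcl9-major cells of all 6 samples (log2 fold change 1.27 ± 0.16 SE), and Cxcl16 was also called higher (log2 fold change 0.73 ± 0.07 SE). Of the 12 chemokines tested 2 were thus higher in Cxcl9-major cells and 2 lower, Ccl4 (-0.76) and Ccl9 (-0.53), with a median log2 difference of -0.38 and 3 of 12 above 0. The number lower was 8 without the filter on low counts, 4 after thinning or without iKO sample 3 or control sample 4, and 1 without iKO sample 1, and 0 passed either way with no sample term. Of 13 class I genes 7 were higher (4 when iKO sample 1 or 2 or either control was left out) and 1, the class I regulator Nlrc5, lower. The GTPases parted: Gbp2b (1.97) was higher in Cxcl9-major cells, as was the marker Gbp2 (0.80), while 5 of the 12 on the list were lower and the marker Gbp5 was lower too (-0.62). Further named genes higher in Cxcl9-major cells were Qpct, which cyclises chemokine ends (1.29), Rgs1, a brake on chemokine receptors (1.16), Flt1, a receptor for Vegfa (1.15), Gatm, of creatine synthesis (1.13), and Nrp1, neuropilin (1.09). Plaat3, a phospholipase (1.05), AW112010 (1.04), Lpl, lipoprotein lipase (0.98), and Ly6a (0.94, log2 differences) completed them.

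The promoters of Rsad2, which had the largest difference among the named genes, and of Ifit3, which is drawn in the plot of the split, are shown for the type I side, with ISRE matches in capitals as above.
Rsad2, chr12:26456453-26456702, minus strand: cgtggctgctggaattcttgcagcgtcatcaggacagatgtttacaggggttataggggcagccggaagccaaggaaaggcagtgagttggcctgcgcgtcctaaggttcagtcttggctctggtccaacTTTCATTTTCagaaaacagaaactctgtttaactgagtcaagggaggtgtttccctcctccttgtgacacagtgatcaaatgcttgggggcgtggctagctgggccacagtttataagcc
Ifit3, chr19:34583279-34583528, plus strand: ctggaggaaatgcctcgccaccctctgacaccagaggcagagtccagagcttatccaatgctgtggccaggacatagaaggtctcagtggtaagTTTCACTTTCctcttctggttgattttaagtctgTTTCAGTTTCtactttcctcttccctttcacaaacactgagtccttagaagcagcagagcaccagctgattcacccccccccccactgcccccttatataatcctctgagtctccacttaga
Rsad2 held 1 ISRE match, at -120, and Ifit3 held 2, at -156 and -122. Of the 10 named genes higher in Cxcl10-major cells 9 were in the promoter table and 6 of those held an ISRE match. Of the 10 named genes higher in Cxcl9-major cells 5 were in the table and 0 held one. Of the genes higher in Cxcl10-major cells that were in the table, 55 of 461 (11.9%) held an ISRE match, 10.2% a GAS match and 9.11% an NF-kappaB-type match. Of those higher in Cxcl9-major cells, 13 of 250 genes (5.2%) held each of the 3 kinds, counted separately. Among all 5360 tested genes in the table the shares were 4.09%, 7.0% and 7.82%. These shares count genes with a match in any of their promoters, whereas those over 32851 promoters given earlier count single promoters. The motifs were chosen with these sequences in view, and no test was made of the shares.

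The genotype effect was also followed within each kind of cell, a split added after the data were seen. In Cxcl9-major cells alone (7 samples with at least 10 such cells, without control sample 3) 422 of 6615 genes passed between genotypes (6.38%). All 31 type I genes rose there, with a median log2 fold change of 1.82, 4 of 9 class II genes fell (-0.51) and 1 of 13 C1q and lipid genes fell (-0.855). In Cxcl10-major cells alone (7 samples, without control sample 2) 49 of 6553 genes passed (0.748%). Of the 31 type I genes 7 rose, all 31 had a fold change above 0 and the median was 1.21, while 0 of 9 class II genes passed (-0.45). Monocyte genes rose in both, 4 of 11 and 2 of 11, with 7 of 11 and 6 of 11 above 0. Chil3 of that list had log2 fold changes of -1.535 and -1.165 and did not pass (edgeR adjusted p = 0.0649 and 0.157). Whether the genotype effect differed between the kinds of cell was not tested.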

How the data were processed

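The deposited values are UMI counts of genes in barcodes, 1 matrix per hashtagged sample, from 10x 3′ libraries. The authors made these counts with Cell Ranger 7.1.0 per the file headers, on GRCm39 per the submitters' processing notes. How barcodes were assigned to hashtags is not given in the sources used here. Samples were grouped by genotype from the labels. The members and the 24 gene lists were chosen with earlier results of these data known. Hashtags were left out (32432 genes kept). UMI counts were summed per class and sample (at least 20 cells) and tested with edgeR 4.0.16 in R 4.3.3: TMM, filterByExpr, quasi-likelihood test, Benjamini-Hochberg adjustment at 0.05, SE as the fold change over the root of F. Genes of the rule and the 5 markers got no test, except that only Cxcl9 and Cxcl10 were left out of the chemokine split. Named genes are the 10 largest rises and falls with mean CPM of at least 50 and no overlap (or 1 direction in every sample), and any gene of the lists, of which some are not reported here. Alternatives were DESeq2 1.42.0, its size factors, no filter, thinning to 5000 UMIs, no cells of Scrublet score over 0.25 (scanpy 1.11.5), 10 cells per profile, a cut by rate, blocks and leaving out samples. On simulated counts with 200 genes changed 4-fold, the test recovered 99.5% of them between genotypes in positive macrophages (7956 genes, 7.44% of calls false) and 88% for the difference of effects (9908 genes). Exact permutation tests used scipy 1.17.1, adjusted over 3 shares, of which that of Cxcl9 is given without its p because counts of both chemokines chose the cells. Intervals and limits cover counting error only.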

Additional observations from a re-analysis of the deposited data

Results flagged for a closer look

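The 3 shares and the CPM of each gene named for genotype were searched for a sample far from the others of its group, in 194 groups of 4 with Dixon's test at the 95% level. Chance flags about 1 in 20 groups, and 10 were found. Control sample 4 stood apart most often: it had the highest Fn1, at 323 CPM beside 172 to 182 CPM in control samples 1 to 3, and the lowest B2m, at 2884 against 3464 to 3554 CPM. It also had the lowest Ifnar2, at 137 against 158 to 161 CPM, and the lowest Mertk, at 7.79 against 25.5 to 28.4 CPM. Control sample 2, with 22 positive cells, had the highest Ifnar1, at 142 against 85.6 to 92.7 CPM, and the highest Pf4, at 1633 against 155 to 321 CPM. Among iKO samples, sample 4 had the highest Mgl2, at 48.8 against 5.74 to 10.3 CPM, and the lowest Vegfa, at 20.5 against 36.6 to 39.0 CPM. Tlr7 was lowest in iKO sample 3, at 36.6 against 48.1 to 49.5 CPM, and Pdk1 in iKO sample 2, at 16.8 against 18.1 to 18.3 CPM.

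The genotype effect differed between positive macrophages and macrophages below the cut by edgeR's test of the interaction for the genes below, given as the effect in positive cells minus that below the cut on the log2 scale. The difference was 0.98 for Cxcl2, 3.10 for Cxcr2, 1.17 for Vcan and 1.03 for Fn1. It was -1.82 for Ifi44, -0.81 for Irf7, -0.93 for Isg15 and -0.81 for Phf11d, whose rises were smaller in positive cells. How far the chemokine cut that made both classes shaped these differences was not tested.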

How the results depend on the processing

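The difference in the share of kept cells was 3.89 points after thinning (exact permutation p = 0.114), 6.71 with at most 5% mitochondrial UMIs (0.0571) and 4.38 to 8.10 without 1 sample, where 0.0571 is the smallest exact p possible. The Cxcl9 share, a description, differed by -18.97 points over cells and by -21.0 to -16.8 without 1 sample. No sign that sample numbers paired the samples was seen. Correlations of deviations were -0.0315 to 0.0161 for same numbers and -0.0544 to 0.103 for different numbers, which cannot exclude a pairing. With the numbers as a replicate block the differences were 6.70 (exact sign-flip p = 0.125, the smallest 4 pairs allow) and -18.99 points, and 499 genes were called between genotypes in positive macrophages. For that comparison the count was 1126 without the low-count filter (743 higher, 383 lower), 399 without control samples 2 and 3, 422 in Cxcl9-major and 49 in Cxcl10-major cells alone (3 settings chosen after seeing the data), and 260 to 947 without 1 sample. Leaving out 1 sample gave 487 to 1428 calls below the cut, 1 to 49 for the difference of effects, 1643 to 2341 against macrophages below the cut, 2501 to 2964 against Arg1-positive macrophages and 447 to 953 for the chemokine split. The difference of effects had 48 calls by DESeq2, 195 without the filter and 6 without control samples 2 and 3. The Arg1-positive contrast had 1554 calls after thinning, the chemokine split 509 after thinning and 455 with no replicate block (no sample term). Causes of these shifts were not tested, except that fewer samples or UMIs enter by construction. No named gene with a call changed sign under any setting run. Depth limits the NK cell markers, of which none was tested between genotypes in positive macrophages, and control samples 2 and 3, with 22 and 21 positive cells.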
